A study of Mus musculus with 6 samples.

Results

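The 10 genes S100a5, Pcp4l1, Kirrel2, Lrrc3b, Kirrel3, Hist2h2be, Fos, Egr1, Arc and Nr4a1, whose transcription is known to follow the activity of olfactory sensory neurons (OSNs) or of neurons in general, were examined among 24661 genes in RNA-Seq of the mouse olfactory mucosa. They were chosen by name, from what is known of them, though with earlier results of these data known, and all 10 were found in every mouse. The mucosa came from C57BL/6 mice at postnatal day 21, of which 3 were wild-type and 3 were homozygous for deletions of both Rtp1 and Rtp2 (RTP1,2DKO), genes that help odorant receptors (ORs) to reach the cell surface. Both deletions replaced the coding regions in 129/B6 hybrid embryonic stem cells and were carried in the germline, the line was kept by crossing to C57BL/6, and the methods describe the mice as sex-matched littermates. The whole mucosa was dissected, so support cells, glands, glia, vessels and blood were sampled together with the OSNs. Change was read beside that of Omp, olfactory marker protein, a gene of mature OSNs, because a whole-tissue RNA level cannot tell fewer mature OSNs apart from less RNA per OSN.

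When an odorant binds its OR, adenylyl cyclase raises cAMP, cation channels open and calcium enters the OSN, and both messengers reach the nucleus through kinases and the transcription factor CREB. Immediate early genes such as Fos respond within minutes and their RNA decays soon after, whereas a second group in OSNs, including S100a5 and Kirrel2, holds a level set by activity over days. A few genes run the other way, among them Kirrel3 and Hist2h2be, which are known to be higher in OSNs with little activity.

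Values of single mice are given in the order of mouse numbers 1, 2 and 3. The total count per mouse lay between 31125410 and 41636996, and a single gland gene, Bpifb9b, took 4.81% to 13.7% of it. Xist, an RNA made in female cells, had 77210 counts in wild-type mouse 2, 76124 in RTP1,2DKO mouse 2 and 110 to 153 in the others. Mouse 2 was thus the female of each group, so what sets number 2 apart cannot be told from sex. Rtp1 averaged 19788 ± 5913 normalized counts in wild-type and 95.0 ± 12.2 in RTP1,2DKO mice (SD, n = 3 each), and Rtp2 averaged 8388 ± 1181 and 45.0 ± 16.7 (SD, n = 3 each), so every library matched its label. Of 12 genes of mature OSNs, all had counts in every mouse, and 11 were lower in RTP1,2DKO with an adjusted p under 0.05 in edgeR's quasi-likelihood test across 22155 genes. Of all genes tested, 3.19% were called lower. Omp had 67308, 60014 and 67100 normalized counts in wild-type mice, and 27622, 36678 and 39605 in the RTP1,2DKO mice. It fell by 0.90 on the log2 scale (standard error, SE, 0.16, adjusted p = 0.0067, edgeR's quasi-likelihood test), to a mean that was 46.6% lower, and the groups did not overlap.

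Over all 10 genes, 5 had log2 fold changes between -1.57 and -0.72, around the -0.90 of Omp, and the other 5 lay between -0.32 and 0.18. In the fit without pairing, 1 of the 10, Kirrel3, fell, where 3.19% of all genes tested were called lower. With the mice paired by their number in the sample labels, 5 of the 10 fell, namely S100a5, Pcp4l1, Kirrel2, Lrrc3b and Kirrel3, where 3.35% of all genes were called lower. None of the 10 was called higher in either fit, against 0.438% and 0.677% of all genes. By edgeR's quasi-likelihood test at an unadjusted p under 0.05 without pairing, 5 were lower and 0 higher. Of all 22155 genes tested, 1647 were lower and 1042 higher at that level. DESeq2 without pairing called 3, Pcp4l1, Lrrc3b and Kirrel3, all lower, as were 4.68% of the 19132 genes to which it gave an adjusted p.

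**Figure D1:**
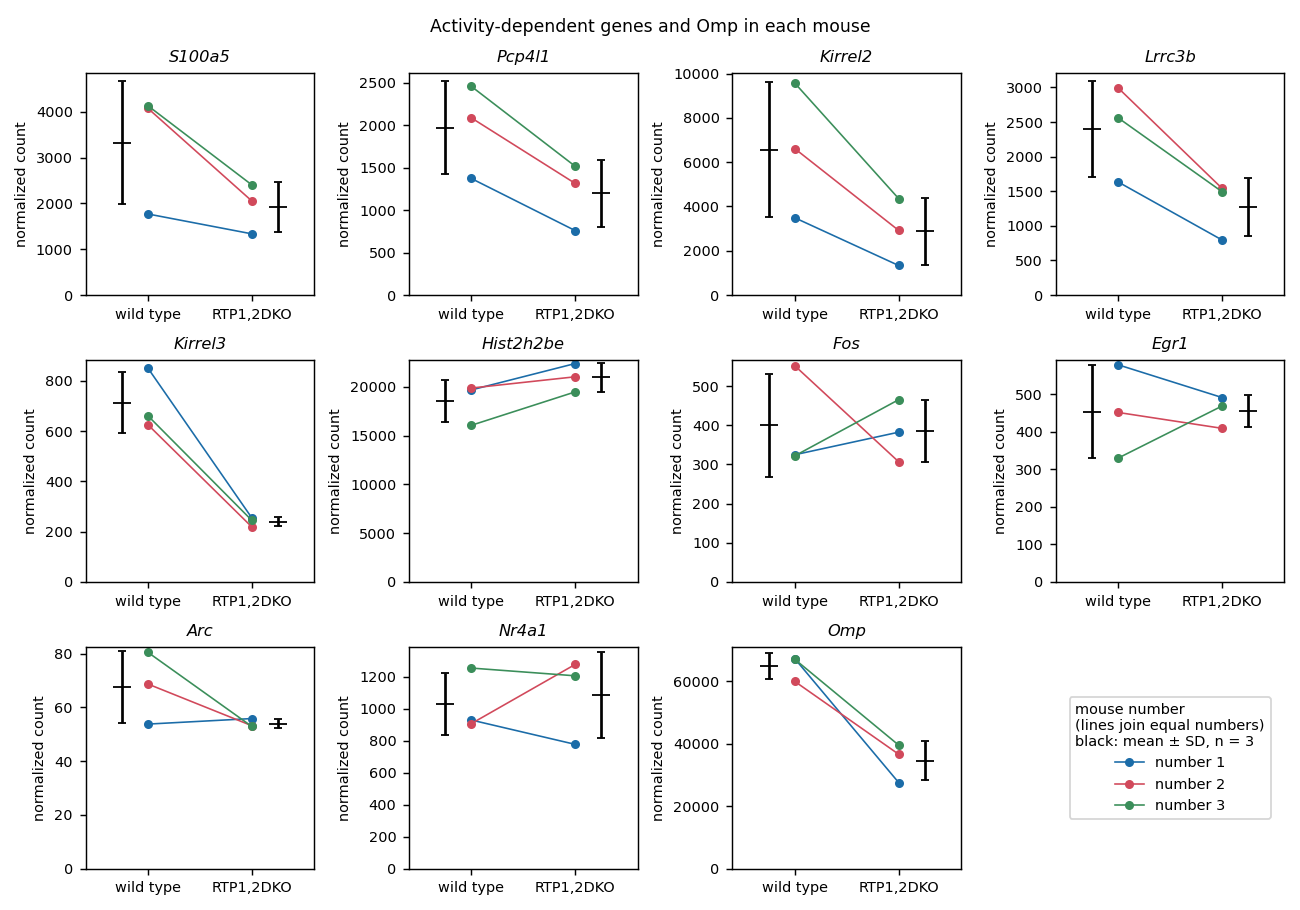
Normalized counts (y axis, linear from 0) of the 10 activity-dependent genes and Omp in 3 wild-type and 3 RTP1,2DKO mice. Each point is 1 mouse, coloured lines join mice of the same number, and black marks give the mean ± SD (n = 3). All 3 lines descend in the panels of S100a5, Pcp4l1, Kirrel2, Lrrc3b, Kirrel3 and Omp, while those of Fos, Egr1, Arc and Nr4a1 run in both directions.

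Genes that activity holds high in OSNs were lower in RTP1,2DKO, with log2 fold changes on both sides of that of Omp. The group held S100a5, Pcp4l1, Kirrel2 and Lrrc3b, and all 4 fell with the mice paired, by a median of 0.83 on the log2 scale. Without pairing none of the 4 passed the threshold in edgeR's quasi-likelihood test, although all 4 had an unadjusted p under 0.05 and DESeq2 called 2 of them. Of all 22155 genes tested, 1647 were lower at that unadjusted p. DESeq2 called 4.68% lower of the 19132 genes to which it gave an adjusted p. The median log2 fold change without pairing was -0.85, beside 0.02 over all genes tested.

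S100a5 encodes an EF-hand calcium-binding protein of mature OSNs and lies on chromosome 3 from 90608523 to 90611780 (GRCm38). It had 1769, 4075 and 4131 normalized counts in wild-type mice, and 1335, 2053 and 2404 in the RTP1,2DKO mice. Wild-type mouse 1 was low, below RTP1,2DKO mice 2 and 3, so the groups overlapped, yet each RTP1,2DKO mouse lay below the wild-type mouse of its own number. The log2 difference was -0.78 ± 0.28 (SE, adjusted p = 0.225, edgeR's quasi-likelihood test) and, paired, -0.73 ± 0.13 (SE, adjusted p = 0.0114). Without wild-type mouse 1 the unpaired log2 fold change was -1.09 with an adjusted p of 0.0116 in edgeR's quasi-likelihood test. With each other mouse left out it was -0.98 to -0.58, with an adjusted p from 0.226 to 0.531.

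Pcp4l1, a small protein related to the calmodulin-binding protein PCP4, lies on chromosome 1 from 171173262 to 171196268. Its normalized counts were 1373, 2087 and 2458 in wild-type mice, and 759, 1314 and 1516 in the RTP1,2DKO mice. Here too wild-type mouse 1 fell among the RTP1,2DKO values, and the order of the mice within each group was the same as for S100a5. The log2 difference of -0.72 ± 0.24 (SE, adjusted p = 0.185, edgeR's quasi-likelihood test) became -0.74 ± 0.11 (SE, adjusted p = 0.0045) with the mice paired.

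Lrrc3b, a membrane protein with leucine-rich repeats on chromosome 14 from 15357515 to 15438987, was measured at 1634, 2994 and 2561 normalized counts in wild-type mice, and at 796, 1542 and 1493 in the RTP1,2DKO mice. The highest RTP1,2DKO mouse was just below the lowest wild-type mouse, so the groups did not overlap, as was the case in that direction for 9.23% of all genes. Its log2 difference of -0.91 ± 0.25 (SE, adjusted p = 0.0773, edgeR's quasi-likelihood test) was -0.92 ± 0.11 (SE, adjusted p = 0.0016) with pairing. Leaving out wild-type mouse 1 gave an unpaired adjusted p of 0.0244 by the same test, and leaving out each other mouse gave 0.0949 to 0.268.

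Kirrel2 is an adhesion molecule of the immunoglobulin superfamily that sorts OSN axons in the olfactory bulb, and lies on chromosome 7 from 30447534 to 30457690. It had 3489, 6613 and 9572 normalized counts in wild-type mice, and 1334, 2918 and 4355 in the RTP1,2DKO mice. Within each group the highest mouse had more than double the count of the lowest, so the groups overlapped, while the differences within pairs were close to each other at -1.39, -1.18 and -1.14 on the log2 scale. The log2 difference was -1.19 ± 0.38 (SE, adjusted p = 0.148, edgeR's quasi-likelihood test) without pairing and -1.23 ± 0.10 (SE, adjusted p = 0.00044) with it.

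All 4 genes of this group were lowest in mouse 1 of both genotypes, as were 13% of all genes tested. Kirrel3 and Egr1 were highest in mouse 1 of both genotypes, as were 14.8% of all genes, and Omp was neither. This order was noticed in the counts, and its cause was not tested.

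**Figure D2:**
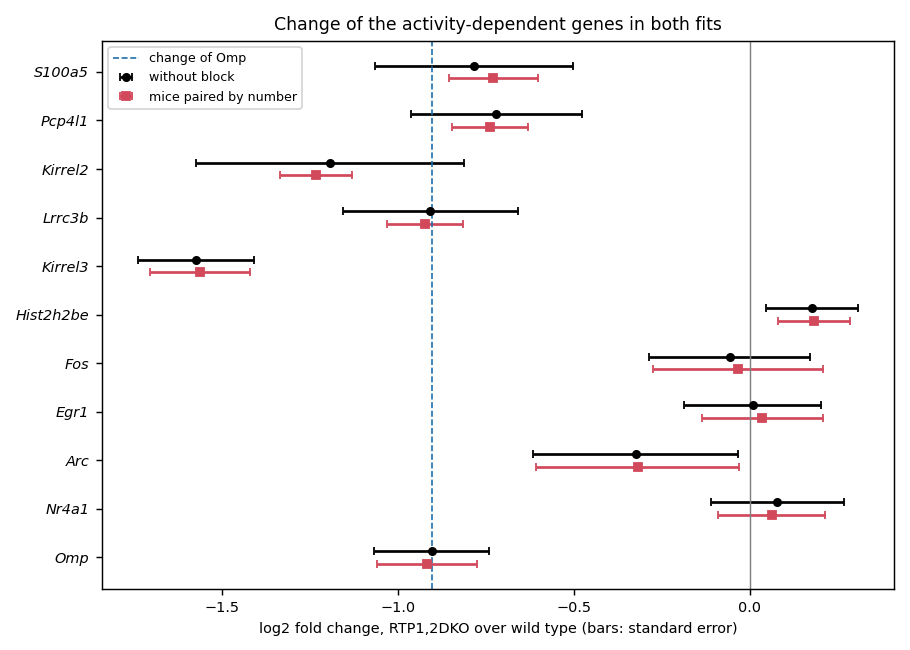
Log2 fold change of RTP1,2DKO over wild-type (x axis) for each gene, with bars for the standard error, in the fit without a block (black circles) and with the mice paired by number (red squares). The dashed line marks the change of Omp, -0.90. With pairing, of the 4 genes held high by activity, S100a5 (-0.73), Pcp4l1 (-0.74) and Lrrc3b (-0.92) lay nearest that line. Kirrel2 lay below it at -1.23. Pairing narrowed the bars of all 4, most for Kirrel2, from 0.38 to 0.10.

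The genes nearest to S100a5 in their levels across the 6 mice were Pcp4l1 and Lrrc3b. Among 13899 genes with a mean of at least 100 normalized counts, Pcp4l1 was the gene most like S100a5, with a root-mean-square difference of 0.18 between the centred log2 values, and Lrrc3b was next with 0.22. They were followed by Chst8, a sulfotransferase, Syt4, a synaptotagmin of secretory vesicles, and Rasgrp4, an exchange factor for Ras, at 0.22 to 0.24. Kirrel2 ranked 85 with 0.39, and Kirrel3 ranked 11788. The measure uses 6 mice that differ in genotype and pairing, so it describes these libraries only.

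RefSeq promoter sequences (GRCm38.p6) were at hand for 6 of the 10 genes, S100a5, Pcp4l1, Kirrel2, Lrrc3b, Fos and Nr4a1. The 250 bases before the start were searched on both strands for the full cAMP response element TGACGTCA, its first 5 bases TGACG (which the full element contains), the AP-1 site TGACTCA and the serum response element, and none of them was found in S100a5, Pcp4l1, Kirrel2 or Lrrc3b. The sequences of S100a5 and of Pcp4l1 and Lrrc3b, the genes nearest to it in level, are shown so that they can be set beside those of Fos and Nr4a1 further on, each 5′ to 3′ on the strand of the gene, at chr3:90608272-90608521 (plus strand), chr1:171196269-171196518 (minus strand) and chr14:15438988-15439237 (minus strand).
S100a5: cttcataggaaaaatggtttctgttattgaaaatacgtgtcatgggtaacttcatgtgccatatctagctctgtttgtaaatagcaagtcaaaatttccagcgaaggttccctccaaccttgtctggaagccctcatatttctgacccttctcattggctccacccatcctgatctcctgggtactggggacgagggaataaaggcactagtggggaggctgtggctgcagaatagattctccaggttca
Pcp4l1: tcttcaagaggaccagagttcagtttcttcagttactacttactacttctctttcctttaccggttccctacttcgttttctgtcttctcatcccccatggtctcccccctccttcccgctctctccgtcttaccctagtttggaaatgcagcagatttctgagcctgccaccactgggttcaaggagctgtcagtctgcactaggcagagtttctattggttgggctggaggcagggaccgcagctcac
Lrrc3b: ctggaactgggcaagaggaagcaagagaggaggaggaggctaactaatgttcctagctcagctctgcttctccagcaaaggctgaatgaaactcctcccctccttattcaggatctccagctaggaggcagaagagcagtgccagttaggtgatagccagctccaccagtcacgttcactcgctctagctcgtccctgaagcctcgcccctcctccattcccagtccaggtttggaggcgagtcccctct
The RefSeq start of Kirrel2 lies inside the gene as placed above, so its window overlaps the gene. The absence of these letters describes the window and says nothing about which factors act on the genes.

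The genes known to be lowered by activity parted from each other. Kirrel3, the relative of Kirrel2 that marks OSN axons of low activity, fell by 1.57 on the log2 scale where Omp fell by 0.90, and Hist2h2be did not pass the threshold. Of the 2 genes, 1 fell and 0 rose.

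Kirrel3 lies on chromosome 9 from 34485894 to 35036716 and had 851, 626 and 662 normalized counts in wild-type mice, and 255, 219 and 245 in the RTP1,2DKO mice. The groups lay far apart, with the highest RTP1,2DKO mouse below every wild-type mouse by more than the spread within either group, and the mean was 66.4% lower. The log2 difference of -1.57 ± 0.16 (SE, adjusted p = 0.00021, edgeR's quasi-likelihood test) was -1.56 with pairing, and it stayed between -1.66 and -1.43 and past the threshold with each mouse left out. The counts of its 5 annotated transcripts were summed, because their split varied between mice of the same group.

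Hist2h2be encodes H2BE, a histone H2B variant of OSNs linked to their lifespan, on chromosome 3 from 96221119 to 96223738. It had 19693, 19888 and 16064 normalized counts in wild-type mice, and 22405, 21044 and 19494 in the RTP1,2DKO mice. Each RTP1,2DKO mouse was slightly above the wild-type mouse of its number, but the groups overlapped and the log2 difference of 0.18 ± 0.13 (SE) did not pass, with an adjusted p of 0.697 in edgeR's quasi-likelihood test and 0.525 with pairing. A small part of its sequence is shared with other H2B genes, 97.2% of its 31-base words being unique, against 100% for the other 9 genes.

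The Kirrel pair was also compared per transcript length, as TPM, a count divided by the effective length of the transcript and expressed as a share of the library. Kirrel2 had 47.2, 95.3 and 89.9 TPM in wild-type mice, and 16.8, 29.2 and 39.4 TPM in the RTP1,2DKO mice. Kirrel3 had 9.48, 7.50 and 5.12 TPM and 2.70, 1.82 and 1.85 TPM in the same mice. In both groups mouse 1 had the most Kirrel3 and the least Kirrel2. The ratio of Kirrel2 to Kirrel3 was 4.98, 12.7 and 17.6 in wild-type mice, and 6.22, 16.1 and 21.4 in the RTP1,2DKO mice. The groups overlapped almost wholly, and each RTP1,2DKO mouse was a little above the wild-type mouse of its number. The mean log2 ratio differed by 0.31 in counts per length and by 0.33 in counts, and leaving out single mice, which breaks a pair, moved the first from -0.21 to 0.84. Within pairs the log2 difference in counts per length was 0.32, 0.34 and 0.28, a mean of 0.31 ± 0.029 (SD, n = 3 pairs). The ratio thus differed by less than the spread between mice of a group and by more than the spread between pairs (two-sided exact permutation test of signs, p = 0.25, the smallest that 3 pairs allow).

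**Figure D3:**
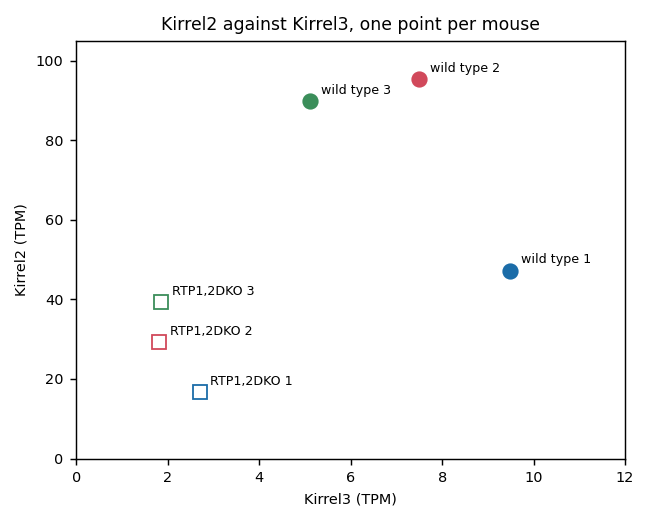
TPM of Kirrel3 (x axis) against TPM of Kirrel2 (y axis), with 1 point for each of 3 wild-type (filled circles) and 3 RTP1,2DKO mice (open squares), colours giving the mouse number. The RTP1,2DKO mice sit nearer the origin on both axes, at 1.82 to 2.70 TPM of Kirrel3 against 5.12 to 9.48 TPM in wild-type. The groups do not overlap in Kirrel2 on this scale, whereas in normalized counts they do.

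The immediate early genes did not differ from the wild-type by more than the spread between mice. None of Fos, Egr1, Arc and Nr4a1 passed the threshold in edgeR's quasi-likelihood test with or without pairing, none did in DESeq2's test, and at an unadjusted p under 0.05 the count was 0. Their median log2 fold change was -0.02, with a range of -0.32 to 0.08, beside a median of 0.02 over all genes.

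Fos, which forms the AP-1 transcription factor with a Jun partner, lies on chromosome 12 from 85473890 to 85477273. It had 325, 552 and 322 normalized counts in wild-type mice, and 383, 307 and 465 in the RTP1,2DKO mice. The highest and the lowest value were both in mice of number 2, wild-type and RTP1,2DKO, and the log2 difference of -0.06 ± 0.23 (SE, adjusted p = 0.960, edgeR's quasi-likelihood test) became 0.25 without wild-type mouse 2 and 0.08 without RTP1,2DKO mouse 2.

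Nr4a1, an orphan nuclear receptor induced by calcium and cAMP, lies on chromosome 15 from 101254269 to 101274795. Its normalized counts were 930, 907 and 1255 in wild-type mice, and 778, 1278 and 1206 in the RTP1,2DKO mice. The values of the groups interleaved, and the log2 difference was 0.08 ± 0.19 (SE, adjusted p = 0.930, edgeR's quasi-likelihood test).

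Egr1, a zinc finger transcription factor on chromosome 18 from 34859823 to 34864984, had 578, 451 and 330 normalized counts in wild-type mice, and 491, 409 and 468 in the RTP1,2DKO mice. All RTP1,2DKO values lay inside the wild-type range, and the log2 difference was 0.01 ± 0.19 (SE, adjusted p = 0.994, edgeR's quasi-likelihood test), turning to -0.03 with scaling to the total count.

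Arc encodes a protein that remodels synapses and is carried in dendrites, and lies on chromosome 15 from 74669083 to 74672570. It was the rarest of the 10, with 53.8, 68.7 and 80.5 normalized counts in wild-type mice, and 55.8, 53.2 and 52.9 in the RTP1,2DKO mice. Wild-type mice 2 and 3 were above all RTP1,2DKO mice and wild-type mouse 1 was not. The log2 difference was -0.32 ± 0.29 (SE, adjusted p = 0.761, edgeR's quasi-likelihood test), with an error like that of S100a5.

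The promoters of Fos and Nr4a1 both held the 5 bases TGACG of the cAMP response element on one strand or the other, where 17.77% of 32851 promoter windows of the same length did. They are given with those 5 bases, or their reverse complement CGTCA, in capitals, at chr12:85473640-85473889 (plus strand) for Fos and chr15:101266596-101266845 (plus strand) for Nr4a1.
Fos: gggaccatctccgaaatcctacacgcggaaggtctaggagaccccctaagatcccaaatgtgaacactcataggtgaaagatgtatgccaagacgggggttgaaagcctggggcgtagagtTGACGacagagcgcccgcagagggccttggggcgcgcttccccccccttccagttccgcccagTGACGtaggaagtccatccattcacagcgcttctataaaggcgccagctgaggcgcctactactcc
Nr4a1: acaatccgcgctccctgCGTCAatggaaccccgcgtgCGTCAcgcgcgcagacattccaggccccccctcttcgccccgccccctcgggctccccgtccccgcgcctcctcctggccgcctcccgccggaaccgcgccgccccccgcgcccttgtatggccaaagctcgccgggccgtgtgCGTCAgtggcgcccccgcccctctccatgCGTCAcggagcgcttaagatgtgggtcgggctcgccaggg
The start is that of RefSeq, which for Nr4a1 lies inside the gene as placed above. Counted from it, the first base of a match lay at -129 and -66 in Fos and at -233, -213, -69 and -40 in Nr4a1. Within these 250 bases neither held the full element (1.55% of all windows), the AP-1 site (4.46%) or the serum response element (1.47%). Sequence further upstream was not searched, so the absence does not extend to the whole promoter of either gene. A match of letters is a description of the sequence and not evidence of binding.

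The genes most like Fos across the 6 mice were Atox1, a copper chaperone, the OR gene Olfr1199, Syngr3, a protein of synaptic vesicles, Snrnp40, a splicing factor, and 2010107E04Rik, at root-mean-square differences of 0.08 to 0.12. None of these was another immediate early gene, and Egr1 ranked 6519 and Nr4a1 ranked 11978 of the 13899 genes. Fos, Egr1 and Nr4a1 had no common order of mice.

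Levels per transcript length placed the genes in a similar order in both groups. In wild-type mice S100a5 was highest with 1659 ± 715 TPM (SD, n = 3), above Omp with 1277 ± 240 TPM, and the spread of these 2 overlapped. The value of S100a5 rests on a transcript of 432 bases with an effective length of 62.6 bases in the files, and a small error in that length would move it strongly. Hist2h2be followed with 285 ± 89.1 TPM, then Kirrel2 with 77.5 ± 26.3, Lrrc3b with 68.2 ± 26.6 and Pcp4l1 with 60.2 ± 14.6 TPM, which did not differ beyond their spread. Nr4a1 had 16.2 ± 0.85 TPM, and Fos (8.48 ± 4.22), Kirrel3 (7.37 ± 2.19) and Egr1 (5.92 ± 2.49) were within their spread of each other. Arc was lowest with 0.85 ± 0.15 TPM.

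In RTP1,2DKO mice S100a5 had 807 ± 106 TPM (SD, n = 3) and Omp 569 ± 15.9 TPM, and Hist2h2be had 271 ± 65.3 TPM. Pcp4l1 (30.6 ± 5.71), Lrrc3b (29.8 ± 6.31) and Kirrel2 (28.5 ± 11.3) were again alike within their spread. Kirrel3, at 2.12 ± 0.50 TPM, now lay below both Fos (6.67 ± 1.46) and Egr1 (4.93 ± 1.19), with only Arc (0.59 ± 0.12 TPM) lower. Nr4a1 had 14.5 ± 1.97 TPM. TPM and normalized counts did not always move together between the groups. The mean of Hist2h2be was lower in RTP1,2DKO mice in TPM and higher in normalized counts (20981 against 18549 in wild-type). The same held for Nr4a1 (1087 against 1031 normalized counts) and Egr1 (456 against 453), so the difference between the scales was not particular to Hist2h2be.

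Each gene was next set against the loss of mature OSN RNA by scaling every mouse to its own Omp count. On that scale S100a5, Pcp4l1, Kirrel2 and Lrrc3b did not pass the threshold, Kirrel3 was lower, and Hist2h2be, Fos, Egr1 and Nr4a1 were higher. Of the 10 genes 4 were called higher and 1 lower by edgeR's quasi-likelihood test. Most genes of the tissue move up when Omp is the yardstick, since 67.6% of all genes were called higher and 1.46% lower and the median over all genes was 0.94 on the log2 scale, so the share of the 10 genes called higher was below that background.

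Per 100 Omp counts, S100a5 had 2.63, 6.79 and 6.16 counts in wild-type mice, and 4.83, 5.60 and 6.07 in the RTP1,2DKO mice. The log2 difference was 0.08 ± 0.23 (SE, adjusted p = 0.752, edgeR's quasi-likelihood test), and it was -0.23 without wild-type mouse 1, the single low value. Pcp4l1 had 2.04, 3.48 and 3.66 counts per 100 Omp counts in wild-type and 2.75, 3.58 and 3.83 in RTP1,2DKO mice, each pair being nearly level apart from mouse 1. Lrrc3b had 2.43, 4.99 and 3.82 in wild-type and 2.88, 4.20 and 3.77 in RTP1,2DKO mice. The log2 fold change was 0.15 for Pcp4l1 and -0.05 for Lrrc3b (SE 0.23 each, adjusted p = 0.569 and 0.858, edgeR's quasi-likelihood test), and that of Lrrc3b turned to 0.26 with 9 mature OSN genes in place of Omp and to 0.16 with Cnga2. Those yardsticks gave 0.38 and 0.28 for S100a5 and 0.44 and 0.33 for Pcp4l1, none of them past the threshold.

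Kirrel2 had 5.18, 11.0 and 14.3 counts per 100 Omp counts in wild-type mice, and 4.83, 7.96 and 11.0 in the RTP1,2DKO mice. Every RTP1,2DKO mouse was below its pair, but the groups overlapped and the log2 difference of -0.36 ± 0.24 (SE) had an adjusted p of 0.186 in edgeR's quasi-likelihood test. It passed without wild-type mouse 1 (-0.67, adjusted p = 0.0281) or without RTP1,2DKO mouse 3 (-0.67, adjusted p = 0.0163), and was -0.03 without wild-type mouse 3. With 9 mature OSN genes in place of Omp it was -0.03 and with Cnga2 -0.13, neither past the threshold.

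Kirrel3 had 1.26, 1.04 and 0.99 counts per 100 Omp counts in wild-type mice, and 0.92, 0.60 and 0.62 in the RTP1,2DKO mice. The groups did not overlap (exact permutation test, p = 0.1, the smallest that 3 mice against 3 allow), as in 1.54% of all genes in that direction. The log2 difference of -0.63 ± 0.26 (SE, adjusted p = 0.0234, edgeR's quasi-likelihood test) lost the threshold without wild-type mouse 1, RTP1,2DKO mouse 2 or RTP1,2DKO mouse 3 (adjusted p = 0.122, 0.136 and 0.0804) and with 9 mature OSN genes in place of Omp (-0.41, adjusted p = 0.0671).

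On this scale Hist2h2be rose from 29.3, 33.1 and 23.9 counts per 100 Omp counts in wild-type mice to 81.1, 57.4 and 49.2 in the RTP1,2DKO mice. The groups did not overlap, as in 67% of all genes in that direction, and the log2 difference of 1.12 ± 0.27 (SE, adjusted p = 0.00027, edgeR's quasi-likelihood test) was near the 0.94 that is the median over all genes. Nr4a1 rose from 1.38, 1.51 and 1.87 to 2.82, 3.48 and 3.05 counts per 100 Omp counts, a log2 difference of 0.97 ± 0.23 (SE, adjusted p = 0.00023, edgeR's quasi-likelihood test). For Egr1 it was 0.95 (adjusted p = 0.00079) and for Fos 0.84 (adjusted p = 0.0031), and Fos, in which the groups overlapped, lost the threshold without RTP1,2DKO mouse 1 (0.68, adjusted p = 0.0603). Arc, at 0.59 (SE 0.40, adjusted p = 0.177), did not pass, but did with 9 mature OSN genes in place of Omp (0.83, adjusted p = 0.0286), where the median over all genes was 1.18.

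The Omp count of a mouse enters every gene alike while the test pools the spread over genes, so these p-values are too small. With the spread taken from each gene alone, Hist2h2be (adjusted p = 0.0372) and Nr4a1 (adjusted p = 0.0276) passed in edgeR's quasi-likelihood test and Kirrel3 (0.0832), Egr1 (0.0731) and Fos (0.135) did not, where 44.8% of all genes were called higher and 0.609% lower.

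**Figure D4:**
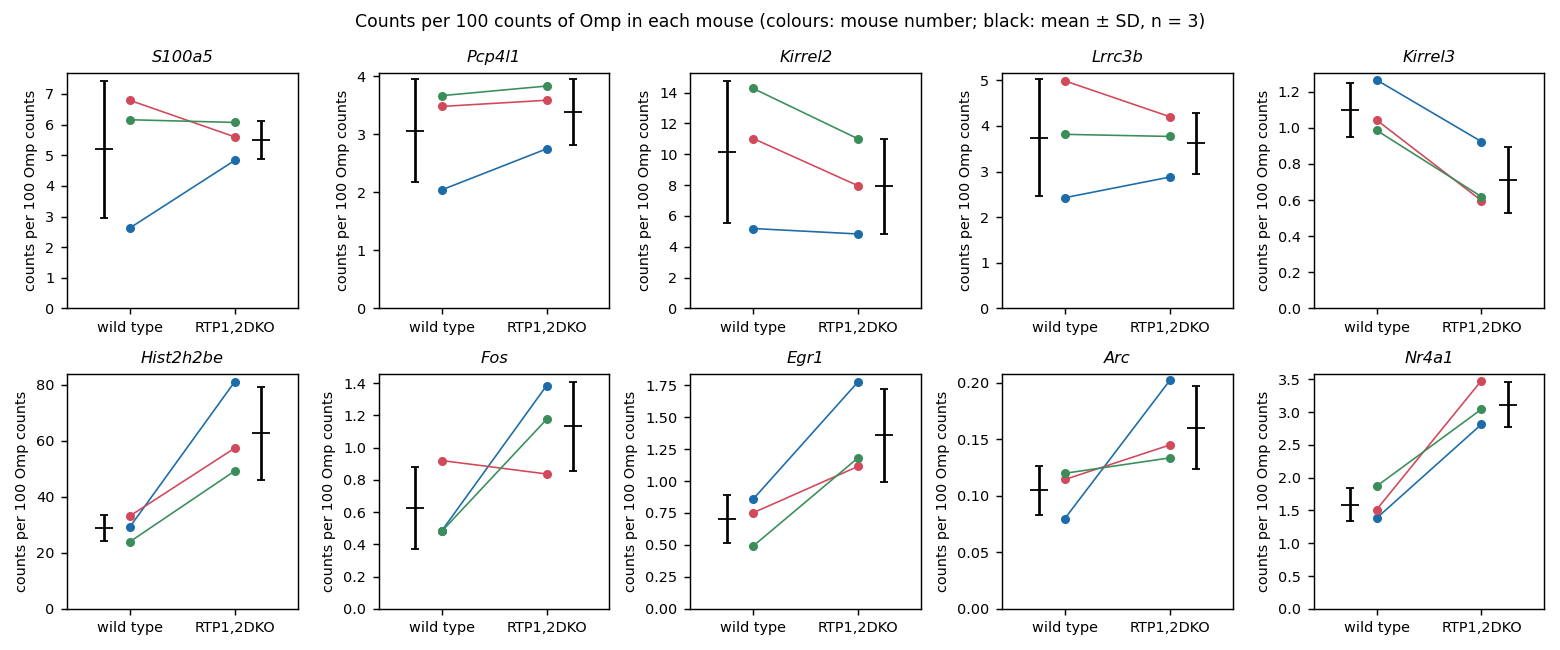
Counts per 100 Omp counts (y axis, linear from 0) of the 10 genes in each mouse, with lines joining mice of the same number and black marks for the mean ± SD (n = 3). Kirrel2 and Kirrel3 descend in all 3 pairs, Kirrel3 from a mean of 1.10 to 0.71. S100a5 and Pcp4l1 rise in mouse number 1, from 2.63 to 4.83 and from 2.04 to 2.75, and otherwise run nearer level, as does Lrrc3b. Hist2h2be, Egr1, Arc and Nr4a1 ascend in all 3 pairs.

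A further 35 immediate early genes, chosen by name, likewise gave no call. None of the 35 passed the threshold in edgeR's quasi-likelihood test or in DESeq2's test, 1 (Gadd45g) had an unadjusted p under 0.05 by either, and their median log2 fold change was 0.04. It ranged from -0.31 for Maff to 0.59 for Atf3, apart from Egr4, whose means of 0.37 counts in wild-type and 2.58 in RTP1,2DKO mice are too few for a fold change, and these genes were singled out for their values. Relative to Omp 31 of the 35, all but Fosl1, Egr2, Egr4 and Ptgs2, were called higher by edgeR's quasi-likelihood test, beside 67.6% of all genes, and 25 with the spread taken from each gene alone, beside 44.8%. Their median was 0.96 against 0.94 over all genes. The 31 were Fosb, Fosl2, Jun, Junb and Jund of the AP-1 family, Egr3, Nr4a2, Nr4a3, Npas4, Ier2, Ier3, Ier5, Dusp1, Btg2, Atf3, Klf2, Klf4, Klf6, Zfp36, Homer1, Bdnf, Maff, Cyr61, Ctgf, Gadd45b, Gadd45g, Sik1, Per1, Csrnp1, Rgs2 and Gem. The genes that carry calcium and cAMP signals to the nucleus, such as calmodulin kinases and CREB partners, gave 1 call lower out of 25, where 3.19% of all genes were called lower. It was Camk2d, with a log2 difference of -0.55 ± 0.11 (SE, adjusted p = 0.0169, edgeR's quasi-likelihood test).

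Other genes linked to activity or axon sorting in OSNs were also lower in part. Of 9 such genes, chosen by name, 5 fell, and 6, with Rasgrp4 added, when the mice were paired, with a median log2 fold change of -0.71 without pairing. Of all genes, 3.19% were called lower without pairing and 3.35% with it. Sema7a, a semaphorin that acts in synapse formation in the bulb, fell by 1.43 on the log2 scale (adjusted p = 0.00025, edgeR's quasi-likelihood test). Epha5, an ephrin receptor, fell by 0.85, the protocadherin Pcdh10 by 0.79, the adhesion molecule Cntn4 by 0.71 and the semaphorin receptor Nrp1 by 0.62 (adjusted p between 0.0024 and 0.0063, edgeR's quasi-likelihood test). Relative to Omp, Sema7a was lower and Plxna1, Efna5 and Doc2g were higher, and the other 5 did not pass in edgeR's quasi-likelihood test. On that scale 67.6% of all genes were called higher and 1.46% lower, so the share of the 9 called higher was below that background. Sema7a lost the threshold with pairing (adjusted p = 0.0554) and kept it with the spread taken from each gene alone (0.0443), where Plxna1 also passed (0.0296) and Efna5 (0.0881) and Doc2g (0.0563) did not. With the spread taken in that way, 44.8% of all genes were called higher and 0.609% lower.

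The changes of S100a5, Pcp4l1, Kirrel2 and Lrrc3b were set beside those of mature OSN genes. Besides Omp the latter were Adcy3, Gnal, Cnga2, Cnga4, Cngb1, Ano2, Stoml3, Slc17a6, Ric8b and Pde1c, which fell, and Gng13, which did not pass. The median of the 12 was -1.05 on the log2 scale, with a range of -2.0 to -0.75, and the 4 genes ranged from -1.19 to -0.72, with S100a5, Lrrc3b and Kirrel2 inside the range of the 12 and Pcp4l1 just outside it. Relative to Omp only Stoml3 of the mature OSN genes was called lower by edgeR's quasi-likelihood test, a call lost with the spread taken from each gene alone (adjusted p = 0.0923), and the median of the 11 without Omp was -0.12. Close relatives of the 10 genes gave 1 call out of 16, S100a6, a calcium-binding protein of the S100 family, which rose by 0.60 (SE 0.12, adjusted p = 0.0161, edgeR's quasi-likelihood test). Of all genes, 0.438% were called higher.

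**Figure D5:**
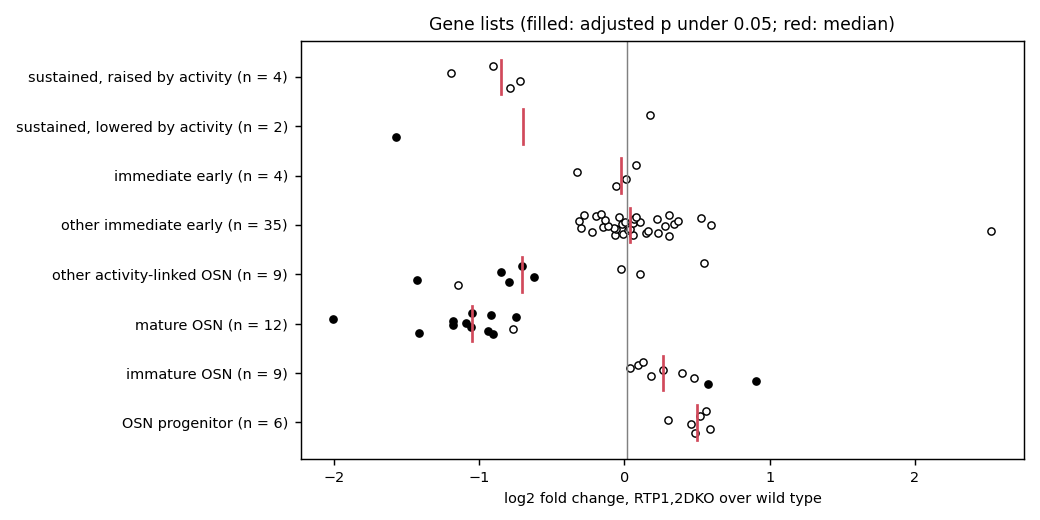
Log2 fold change of RTP1,2DKO over wild-type (x axis) for each gene of 8 lists (rows), with filled points for an adjusted p under 0.05 in edgeR's quasi-likelihood test without pairing and a red line for the median of the list. The genes raised by activity lie on the same side as the mature OSN genes, with medians of -0.85 and -1.05, and the immediate early genes lie around 0. The open point at the far right is Egr4, which had a mean under 3 counts in both groups.

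Markers of other cells moved beside these changes. Summed normalized counts of 9 immature OSN genes were 37519 to 46659 in wild-type and 50544 to 53546 in RTP1,2DKO mice, and Gng8 rose by 0.91 on the log2 scale (adjusted p = 0.0125, edgeR's quasi-likelihood test). Gap43, a growth cone protein, rose by 0.58 (adjusted p = 0.0426, edgeR's quasi-likelihood test, and 0.0592 with pairing). Stmn1, a regulator of microtubules, passed with pairing (0.49, adjusted p = 0.041, against 0.0609 without it). The summed counts of 6 OSN progenitor genes were 5944 to 7179 and 8434 to 10545, with none past the threshold in edgeR's quasi-likelihood test, 6 higher at an unadjusted p under 0.05 and 1, Top2a, called by DESeq2 and with pairing. Blood genes summed to 58008 to 94622 and 92498 to 170236, with 0 of 7 past the threshold, 6 higher at an unadjusted p under 0.05 and 2, Hbb-bs and Hbb-bt, called by DESeq2. Of all 22155 genes tested, 1042 were higher at an unadjusted p under 0.05 by edgeR's quasi-likelihood test. That test called 0.438% of all genes higher without pairing and 0.677% with it. DESeq2 called 217 genes higher, of 19132 given an adjusted p, and among the 9 immature OSN genes it called 4, all higher. Genes of sustentacular cells and glands, basal and respiratory cells, ensheathing glia, immune cells and stroma gave 0 calls out of 32 by either tool, with 0 at an unadjusted p under 0.05 by edgeR and 1 (Acta2, higher in RTP1,2DKO mice) by DESeq2, and no defining marker of any of these lists was at 0. Since immediate early genes and Hist2h2be may be transcribed in several of these cell types, what part such cells had in their levels was not tested.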

How the data were processed

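RNA-Seq of 6 olfactory mucosae was analysed. The authors assigned reads with kallisto (version not given in the sources used here) to mouse transcripts, labelled mm10, and deposited estimated counts, lengths and TPM values per transcript. The deposited TPM values were summed per gene and not tested. For each gene the estimated counts of its transcripts were added up, rounded and divided by size factors (median of ratios, DESeq2 1.42.0) to give normalized counts. Genes without a count in any mouse were dropped, and 22155 were tested by the quasi-likelihood test of edgeR 4.0.16 (R 4.3.3) with Benjamini-Hochberg adjustment at 0.05. A further fit scaled each mouse to its Omp count. Summaries used Python 3.11.15. Positions came from GENCODE M21 (GRCm38). On simulated counts of 21978 genes the fit over all genes recovered 93.5% of 200 changed genes and 87.0% of those changed by 1 on the log2 scale, and 1.57% of its calls were false. The simulation gave every gene the same fixed spread, had no differences between pairs, and changed only genes above a minimum mean count. It checked that the fit runs correctly, and its shares do not give the power or the false calls in these mice.

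Deviations from the group mean correlated at 0.139, 0.179 and 0.103 between wild-type and RTP1,2DKO mice of the same number (18133 genes). Between mice of different numbers the correlation ran from -0.219 to 0.0934, the highest being wild-type mouse 1 with RTP1,2DKO mouse 3. The methods describe sex-matched littermates, so the numbers were taken as pairs, although the labels do not say that a number marks a litter. The blocked value is given where it changed the call of a named gene. P-values rest on 3 mice per group.

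The 10 genes and the comparison lists were chosen with earlier results of these data known. Named beside them were the targeted genes, every gene past the threshold among mature OSN, further immediate early and activity-linked genes, up to 3 per other list, and the 5 genes nearest to S100a5 and Fos. Alternatives were TMM, total count scaling, filterByExpr, DESeq2, the replicate block, an effective length offset, other OSN yardsticks and each mouse left out. Fits without sharing of the spread between genes and DESeq2 with the block were added after the data were seen. A marker left out of the ensheathing glia list is not reported here.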

Additional observations from a re-analysis of the deposited data

How the results depend on the processing

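In the fit over all genes Kirrel3 and Omp kept their direction in every alternative and passed in all but the fit without sharing of the spread between genes. The number of the 10 genes changed was 1 in the reported fit, 5 with the replicate block, 3 with DESeq2, 5 with DESeq2 and the block, 2 with total count scaling (Lrrc3b and Kirrel3), and 0 by edgeR without sharing of the spread, where 1 had an unadjusted p under 0.05. With each mouse left out it was 1 to 3, the 3 arising without wild-type mouse 1. Over all genes the count was 804 in the reported fit, 35 without sharing of the spread, and 524 to 716 with each mouse left out. Relative to Omp 5 of the 10 were called, 2 without sharing of the spread and 4 to 5 with each mouse left out, and the count over all genes of 15297 became 10055 and 13228 to 15303.

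Among the 10 genes signs turned for changes that were not called, and the genotype difference in the log2 ratio of Kirrel2 to Kirrel3 was -0.21 to 0.84 with each mouse left out. Egr1 was -0.031 with total count scaling, and Lrrc3b relative to Omp was 0.26 with 9 mature OSN genes and 0.16 with Cnga2. Leaving out each mouse gave -0.17 to 0.22 for Egr1, -0.22 to 0.25 for Fos and -0.055 to 0.27 for Nr4a1, and relative to Omp -0.23 to 0.33 for S100a5, -0.075 to 0.30 for Pcp4l1 and -0.28 to 0.22 for Lrrc3b. The cause was not tested. The block changed the calls of S100a5, Pcp4l1, Kirrel2 and Lrrc3b and of no other of the 10 genes.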
